A study of Mus musculus with 16 samples.

Results

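Clone 4 and clone 8 are lines of mouse cells that carry the same inducible kinase, and the RNA response to 4 h of that kinase was compared between them. A gene's clone difference is its log2 change from 0h to 4h in clone 8 minus the same change in clone 4, so a negative value means a smaller rise, or a deeper fall, in clone 8. The comparison used the 8 libraries of the 16 in the series that were taken at 0h or 4h, 2 per clone and time. Of 12742 genes with enough counts to be tested, 729 had a clone difference at an adjusted p under 0.05, and 588 of those passed the test of the 4h change in 1 clone and not in the other.

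All groups came from embryonic stem cells of the line CRAFR26, which hold a c-RAF kinase construct, were turned into the cell type labelled RSC, and were kept routinely in N2B27 medium with 2 µM IWP2, 1 µM of the MEK inhibitor PD03 and 1000 U/ml LIF. For the experiment PD03 was replaced for 48 h by 250 nM PD17, a blocker of the FGF receptor, in both clones. The 0h group was taken at the end of those 48 h without 4-hydroxytamoxifen (4OHT), and the 4h group after 4 h in 250 nM 4OHT, which switches the construct on. A 2h group had 2 h of 4OHT, and a group called rev had 4 h of 4OHT followed by 2 h of a MEK inhibitor whose dose is not stated. No group kept for 4 h without 4OHT was analysed here, so 4OHT and the added culture time cannot be told apart in a change from 0h to 4h. What separates the 2 libraries of 1 clone and time is not given, so the p-values measure only the spread between these libraries, and the comparison is of these 2 clones rather than of clones in general.

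RAF kinases phosphorylate MEK, MEK phosphorylates ERK, and active ERK switches on immediate-early transcription factors such as EGR1 and the AP-1 proteins within minutes. The same signal induces its own brakes, among them the DUSP phosphatases and the Sprouty and Spred proteins. In mouse pluripotent cells ERK activity is known for drawing cells out of the naive state, with loss of NANOG and KLF4 and a gain of genes of the formative stage that follows.

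The 8 libraries held 4.31 to 9.12 M counts, of which 54.0% to 65.3% fell on 9 features with over 1% of a library each, among them ribosomal RNA. That left 1.5 to 3.71 M counts for the other genes, the fewest in clone 4 4h library 2. Clone 8 4h library 1 stood somewhat apart from its partner, with 54.0% against 62.3% of counts on the abundant features and a TMM factor of 1.23 against 0.99. Levels are given as CPM after TMM scaling over the counts of tested genes, and 3 counts in a library were worth 0.302 to 0.762 CPM. The pluripotency factors Pou5f1 (Oct4) and Sox2 were present in every library, Pou5f1 at 144 to 175 CPM and Sox2 at 201 to 233 CPM, and neither had a called clone difference (edgeR adjusted p = 0.78 and 0.845). Fibroblast markers, which would mark feeder cells, summed to 0.9 to 3.7 CPM over all 10 genes, none of which had enough counts to be tested, and 5 of them, among them Col3a1, Dcn and Acta2, had no count at all. In bulk RNA, fewer cells responding and less RNA per responding cell cannot be told apart.

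Clone 4 responded more widely than clone 8. In clone 4 the 4h change passed the test for 2607 genes, 20.5% of those tested, with 1405 higher (11.0%) and 1202 lower (9.43%). In clone 8 it passed for 664 genes (5.21%), with 374 higher (2.94%) and 290 lower (2.28%). The clone difference itself passed for 729 genes (5.72%), 470 with a lower value in clone 8 (3.69%) and 259 with a higher one (2.03%). The log2 change had a median standard error over all tested genes of 0.211 for clone 4 and 0.186 for clone 8. The part of precision in the shorter list of clone 8 was not tested. Scaling by library totals in place of TMM left 153 of the 729 calls and moved the median clone difference of all genes from 0.03 to 0.35. The clone difference passed for 281 genes without clone 4 4h library 1, for 431 and 482 without clone 8 0h library 1 or 2, and for 478 without clone 8 4h library 1. Without clone 4 4h library 1 the clone 4 change passed for 1301 genes, and without any 1 of its 4 libraries the clone 8 change passed for 149 to 294.

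Of the 729 genes, 369 rose in clone 4 only and 204 fell in clone 4 only, against 9 that rose and 6 that fell in clone 8 only. Clone 4 thus held 573 of the 588 one-clone genes, or 97.4%, and the 588 became 215 without clone 4 4h library 1 and 387 without clone 8 0h library 1. A further 71 rose and 31 fell in both clones with a difference in size, and the change was the larger one in clone 4 for all 102. The last groups were 9 genes that went opposite ways and 30 that passed in neither clone. The 369 rises of clone 4 had a median log2 change of 1.36 there and of -0.00 in clone 8, and the 204 falls had medians of -0.91 and -0.03. In clone 8, 315 of the 369 and 198 of the 204 had a change under 0.5 in size, and for 127 and 133 of them the 95% interval of the clone 8 change lay wholly within 0.5 of 0. The 9 rises and 6 falls of clone 8 only had median changes of 0.64 and -0.78 there and of -0.21 and 0.53 in clone 4. In clone 4, 7 of these 9 and 3 of these 6 had a change under 0.5 in size. For 4 and 1 the 95% interval of the clone 4 change lay wholly within 0.5 of 0. These classes were defined by the tests they summarise, so their medians are descriptions.

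Many genes called in clone 4 had no called difference. Of 2163 genes called in clone 4 and not in clone 8, 1590 did not pass the test of the clone difference. The 1405 genes that rose in clone 4 had a median change of 0.86 there and 0.24 in clone 8, where 78.8% had the same sign and 18.6% were called the same way. The 374 genes that rose in clone 8 had a median of 0.59 there and 0.64 in clone 4, with 94.7% of the same sign and 70.1% called the same way. Across the 12742 genes the changes in the 2 clones, which share no library, had a Pearson r of 0.465 and a Spearman rho of 0.425, a description over genes that are not independent of each other.

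**Figure D1:**
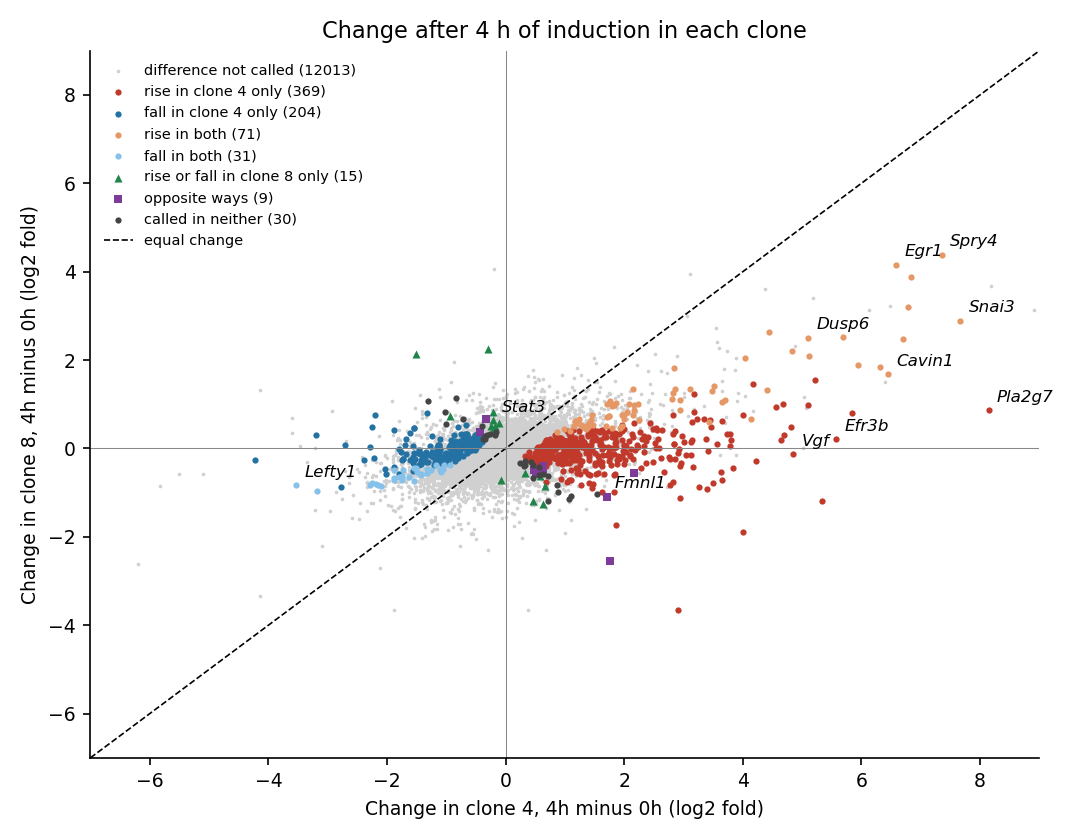
Fitted log2 change from 0h to 4h in clone 4 (horizontal axis) and clone 8 (vertical axis) for the 12742 tested genes, 1 point per gene, coloured by class of the called clone difference. The dashed line marks equal changes; the 369 genes that rose in clone 4 only lie to the right along a clone 8 change near 0, and few coloured points lie above and below the centre, where the 15 clone 8 genes sit.

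The genes that rose most in clone 4 alone encode secreted, membrane and gene-regulating proteins. Efr3b, which anchors a lipid kinase complex at the plasma membrane (chromosome 12, 3962554 to 4038915, minus strand, build GRCm38), went from 3.20 and 2.88 CPM at 0h to 169.6 and 115 CPM at 4h in clone 4. In clone 8 it stood at 5.91 and 3.45 CPM at 0h and 5.03 and 6.43 CPM at 4h. The clone 8 libraries overlapped between the times and all lay below both clone 4 libraries at 4h. In clone 4 its log2 change came to 5.57 (SE 0.216), and for clone 8 the fit gave 0.21 (SE 0.276), a clone difference of -5.36 (SE 0.393; edgeR adjusted p = 6.39e-11). Efr3b was also apart in the libraries of the other times, at 19.5 and 22.8 CPM at 2h and 15.5 and 15.7 CPM at rev in clone 4 against 5.24 and 3.86, then 4.24 and 3.97 CPM in clone 8.

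Pla2g7, a secreted enzyme that breaks down platelet-activating factor (chromosome 17, 43568098 to 43612201, plus strand), was nearly silent at 0h in clone 4, at 0.200 and 0 CPM, and stood at 33.3 and 22.9 CPM at 4h. In clone 8 it was at 0.519 and 1.01 CPM at 0h and 1.21 and 1.53 CPM at 4h. Both clone 8 libraries at 4h lay below 2 CPM, far under those of clone 4, but above both clone 8 libraries at 0h. The clone 8 change of 0.87 (SE 0.535) did not pass (edgeR adjusted p = 0.391). The clone 4 ratio of 345 rests on 1 count at 0h and has a counting interval of 61.5 to 13663, and the clone difference of -7.28 (SE 1.04; edgeR adjusted p = 1.35e-05) rests on the same count.

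Vgf, a precursor of neuroendocrine peptides (chromosome 5, 137026392 to 137033351, plus strand), rose from 0.400 and 0.606 to 19.2 and 9.90 CPM in clone 4. In clone 8 it stayed between 0.519 and 0.862 CPM in all 4 libraries. The clone 4 libraries at 4h were 10 or more times as high as any clone 8 library, and the clone difference was -4.98 (SE 0.921; edgeR adjusted p = 0.000473). Twist1, a transcription factor of mesoderm and of epithelial to mesenchymal transition, rose from 0.200 and 0.606 to 12.5 and 10.2 CPM in clone 4 and stood at 0.519 to 1.15 CPM in clone 8, a difference of -4.40 (SE 0.822; adjusted p = 0.000533). Hivep2, a zinc-finger transcription factor, rose from 0.400 and 0.303 to 10.8 and 9.14 CPM in clone 4 and was at 0.726 and 0.718, then 1.31 and 0.613 CPM in clone 8. For both factors the clone 8 libraries overlapped between the times.

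Nptx1, a neuronal pentraxin secreted at synapses, rose from 1.80 and 0.606 to 14.0 and 14.5 CPM in clone 4 and went from 4.46 and 7.04 to 3.32 and 4.59 CPM in clone 8. Col7a1, the collagen of anchoring fibrils, rose from 2.80 and 1.21 to 24.7 and 17.5 CPM in clone 4 and lay at 2.80 and 3.02, then 2.31 and 0.766 CPM in clone 8. Sema6a, a transmembrane guidance protein, rose from 0.999 and 1.36 to 15.9 and 8.38 CPM in clone 4 and lay at 1.76 and 1.15, then 0.804 and 0.766 CPM in clone 8. These 3 genes had clone differences of -4.18, -4.27 and -4.31, with clone 8 changes of -0.54, -0.78 and -0.92 that did not pass (edgeR adjusted p = 0.294, 0.289 and 0.333). Slc46a3, a lysosomal transporter, completes the pattern with 1.2 and 0.909 to 16.1 and 13.5 CPM in clone 4 and 0.613 to 1.35 CPM in clone 8. Vgll3, a cofactor of TEAD factors, rose from 0.400 and 0.303 to 14.5 and 9.14 CPM in clone 4 and read 0.415 and 1.01, then 1.41 and 1.23 CPM in clone 8. Vgll3 in clone 8 thus stood higher in both 4h libraries than in both 0h libraries, a change that did not pass. Its clone difference of -4.12 was not called without clone 8 0h library 2 (adjusted p = 0.117), while the other 9 genes of this group kept their call without any 1 of the 8 libraries.

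**Figure D2:**
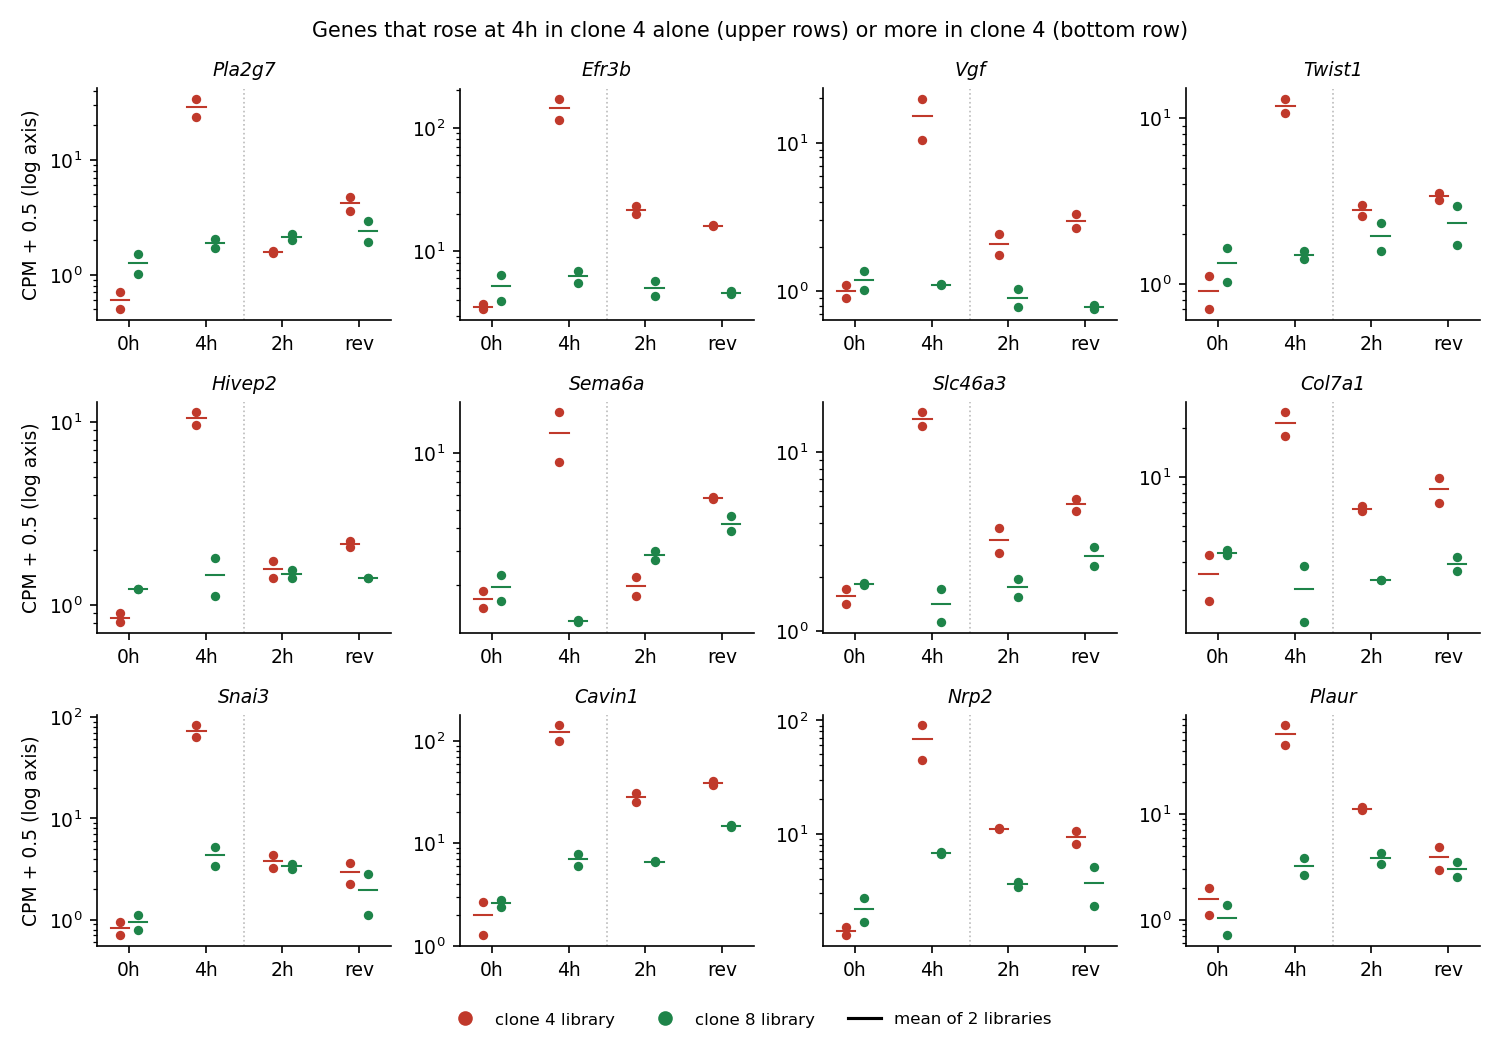
CPM plus 0.5 on a log axis for 12 genes at 0h, 4h, 2h and rev, with 1 point per library, a bar at the mean of 2 libraries and a colour per clone. Upper rows show 8 genes that rose in clone 4 only, such as Efr3b at 115 to 169.6 CPM against 5.03 to 6.43 CPM at 4h, and the bottom row 4 genes that rose in both clones, more in clone 4.

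Falls in clone 4 alone were shallower than the rises. Rasgef1a, an exchange factor for small GTPases of the Ras family, fell from 5.79 and 7.43 to 2.13 and 2.29 CPM in clone 4, and in clone 8 went from 6.85 and 7.18 to 9.85 and 7.66 CPM. Prmt8, an arginine methyltransferase, fell from 3.60 and 7.12 to 0.667 and 1.78 CPM in clone 4 and read 7.06 and 8.77, then 5.83 and 7.35 CPM in clone 8. At 4h both clone 4 libraries lay below every clone 8 library for both genes, with clone differences of 1.96 (SE 0.4; edgeR adjusted p = 0.00152) and 2.11 (SE 0.523; adjusted p = 0.0101). Rab11fip5, which acts in endosome recycling, fell from 8.99 and 8.18 to 2.4 and 3.05 CPM in clone 4 and stayed at 16.2 to 17.4 CPM in clone 8. AI464131 fell from 9.79 and 8.18 to 2.4 and 2.79 CPM in clone 4 and lay at 9.04 to 10.1 CPM in clone 8. Slco4a1, an organic anion transporter, fell from 4.40 and 5.61 to 1.87 and 2.29 CPM in clone 4, while the values in clone 8 were 3.84 and 3.31, then 5.33 and 7.66 CPM. Without clone 4 4h library 1 the calls of Slco4a1, Prmt8, AI464131 and Rab11fip5 were lost (adjusted p from 0.0511 to 0.38), and Prmt8 also lost its call without clone 4 0h library 2 (0.193).

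Responses of clone 8 alone were few and small. Stat3, the transcription factor that carries the LIF signal (chromosome 11, 100885098 to 100939540, minus strand), rose from 35.6 and 36.9 to 54.7 and 58.8 CPM in clone 8. In clone 4 it read 38.0 and 40.9 CPM at 0h and 31.5 and 38.1 CPM at 4h. The 2 clone 8 libraries at 4h lay above all others, and the clone difference was 0.85 (SE 0.169; edgeR adjusted p = 0.0011). Notch4, a Notch receptor, rose from 15.7 and 14.1 to 28.3 and 24.2 CPM in clone 8 and read 11.8 and 13.3, then 8.93 and 14.2 CPM in clone 4. Slc19a2, a thiamine transporter, rose from 36.6 and 37.9 to 56.1 and 54.4 CPM in clone 8, and Nefh, the heavy neurofilament subunit, from 29.6 and 29.3 to 42.1 and 42.3 CPM. In clone 4 the 2 libraries at 4h stood on either side of the 0h values for Notch4, Slc19a2 and Nefh. Fam174b rose from 5.91 and 4.45 to 8.44 and 9.19 CPM in clone 8 and read 4.00 and 4.09, then 1.87 and 2.54 CPM in clone 4, and 16.2% of it is overlapped by a gene on the opposite strand. Without clone 4 4h library 1 none of these 5 differences was called (edgeR adjusted p from 0.0512 to 0.428).

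Falls in clone 8 alone included Tiam1, an activator of the GTPase Rac, which fell from 42.0 and 38.9 to 25.1 and 24.5 CPM in clone 8 and read 38.6 and 30.5, then 32.7 and 32.0 CPM in clone 4. Plin2, a coat protein of lipid droplets, fell from 16.5 and 14.4 to 10.1 and 9.95 CPM in clone 8 and read 11.6 and 8.03, then 17.2 and 10.2 CPM in clone 4. Both clone 8 libraries at 4h lay below those at 0h, while the clone 4 libraries overlapped between the times. Tnks1bp1, which binds tankyrase, fell from 36.9 and 37.8 to 26.9 and 23.3 CPM in clone 8, with 37.4 and 26.4, then 44.1 and 33.3 CPM in clone 4. Tmem229b, at under 10 CPM throughout, fell from 9.23 and 7.62 to 5.03 and 4.29 CPM in clone 8. These 4 differences, -0.63 to -1.52, had edgeR adjusted p-values of 0.0321 to 0.00478, and all 4 calls were lost without clone 4 0h library 2 (0.0812 to 0.227). With library totals in place of TMM none of the 4 falls passed, and of the 5 rises only Fam174b did. DESeq2 did not call Tmem229b and Tiam1 of the falls, and of the rises it called only Stat3. The call of Tiam1 was lost without any of 7 of the 8 libraries, those of Tmem229b and Plin2 of 3 and that of Tnks1bp1 of 2. Among the rises Nefh and Slc19a2 lost theirs without any of 5 libraries, Notch4 of 4, Fam174b of 2 and Stat3 of 1.

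Of the 9 genes that went opposite ways, Fam107b had the best measured difference (chromosome 2, 3570488 to 3782142, plus strand). It rose from 10.4 and 11.8 to 57.1 and 40.6 CPM in clone 4 and fell from 22.0 and 24.7 to 15.8 and 15.8 CPM in clone 8, so that the order of the clones was turned round between 0h and 4h. The clone difference was -2.72 (SE 0.23; edgeR adjusted p = 6.16e-10), with a clone 8 change of -0.56 (adjusted p = 0.0283). Fmnl1, a formin that builds actin filaments, rose from 1.40 and 0.606 to 3.33 and 2.79 CPM in clone 4 and fell from 5.81 and 7.04 to 3.02 and 2.91 CPM in clone 8. At 4h the clones overlapped for Fmnl1, and its difference was not called without clone 4 4h library 1 (adjusted p = 0.0753). Tro, the adhesion protein trophinin, rose from 8.19 and 9.25 to 13.5 and 14.0 CPM in clone 4 and fell from 14.6 and 13.5 to 9.25 and 10.1 CPM in clone 8. Dnmt3a, a DNA methyltransferase that sets new methylation, belonged to the same class, from 37.4 and 37.4 to 62.3 and 51.8 CPM in clone 4 and from 48.2 and 47.9 to 37.2 and 35.7 CPM in clone 8, a difference of -1.02 (adjusted p = 4.31e-05).

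Some genes that rose in both clones reached far higher levels in clone 4. Cavin1, a coat protein of caveolae (chromosome 11, 100956733 to 100970887, minus strand), rose from 2.20 and 0.758 to 142 and 99.3 CPM in clone 4 and from 1.87 and 2.30 to 7.44 and 5.51 CPM in clone 8. Nrp2, a co-receptor for semaphorins and VEGF, rose from 0.999 and 0.758 to 90.1 and 44.4 CPM in clone 4 and from 2.18 and 1.15 to 6.33 and 6.13 CPM in clone 8. Snai3, a member of the Snail family of repressors (chromosome 8, 122454208 to 122460733, minus strand), rose from 0.200 and 0.455 to 82.3 and 62.5 CPM in clone 4 and from 0.623 and 0.287 to 2.92 and 4.75 CPM in clone 8. In all 3 the 4h libraries of each clone lay above its 0h libraries, and the 4h libraries of clone 4 lay above those of clone 8. The clone differences were -4.76 (SE 0.525; edgeR adjusted p = 2.52e-07) for Cavin1, -4.47 (SE 0.719; 7.25e-05) for Nrp2 and -4.78 (SE 1.03; 0.00269) for Snai3, whose call was lost without clone 8 0h library 1 (0.282). At 2h Cavin1 stood at 24.5 and 30.7 CPM in clone 4 and 6.23 and 6.03 CPM in clone 8, without overlap, whereas Snai3 stood at 3.89 and 2.76 CPM and 3.04 and 2.66 CPM, with overlap.

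**Figure D3:**
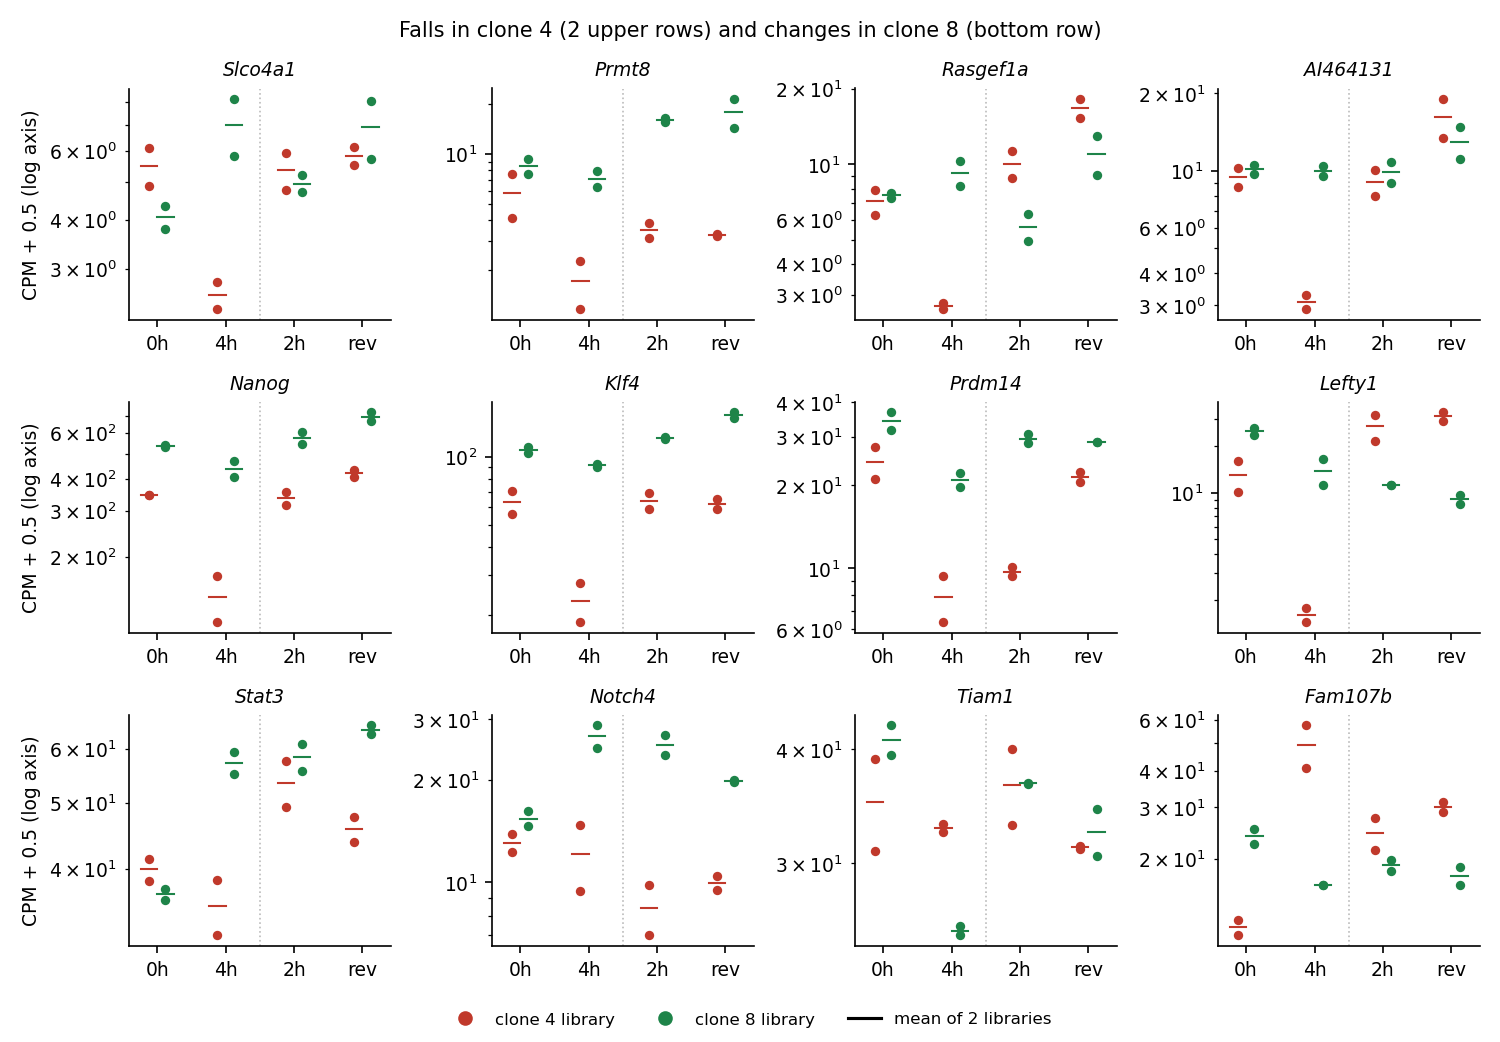
CPM plus 0.5 on a log axis at 0h, 4h, 2h and rev, with 1 point per library and a bar at the mean, for 4 genes that fell in clone 4 only (top), 4 pluripotency and Nodal pathway genes (middle) and 4 genes with a called change in clone 8 (bottom). Stat3 at 4h lies at 54.7 and 58.8 CPM in clone 8 against 31.5 and 38.1 CPM in clone 4, and Fam107b moves apart in opposite ways.

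Among ERK feedback and immediate-early genes, 10 of 22 tested had a called difference, all 10 lower in clone 8, where 3.69% of all tested genes were. In clone 4, 19 of the 22 rose (11.0% of all) and in clone 8 13 did (2.94% of all). The median changes were 3.04 and 1.02, against -0.02 and -0.00 over all genes. The change was smaller in clone 8 for 21 of the 22. Within the list the ratio between clones was uneven. Spred1, an inhibitor of RAF activation, rose from 3.8 and 1.97 to 52.5 and 43.7 CPM in clone 4 and from 17.2 and 16 to 25.7 and 27.3 CPM in clone 8, so clone 8 began higher and ended lower. Its difference was -3.47 (SE 0.297; edgeR adjusted p = 7.5e-10). Dusp4, a nuclear phosphatase of ERK, rose from 0.599 and 1.36 to 68.8 and 59.7 CPM in clone 4 and from 4.05 and 3.88 to 15.4 and 13.8 CPM in clone 8, a difference of -4.07 (SE 0.485; 6.81e-07). Dusp6, its cytoplasmic relative, rose from 1.2 and 3.03 to 80.0 and 73.9 CPM in clone 4 and from 3.84 and 3.59 to 22.8 and 19.3 CPM in clone 8. Both phosphatases stood 3 or more times higher in clone 4 at 4h than in clone 8.

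Spry4, a Sprouty inhibitor of receptor signalling, rose from 0.999 and 1.67 to 218 and 238 CPM in clone 4 and from 1.97 and 3.45 to 55.0 and 54.4 CPM in clone 8, a difference of -2.97 (SE 0.402; edgeR adjusted p = 5.7e-06). Spry2 rose from 12.4 and 14.1 to 63.1 and 54.4 CPM in clone 4 and from 12.5 and 12.4 to 33.1 and 29.6 CPM in clone 8, a smaller difference of -0.81 (SE 0.227; 0.0277) that was lost without any of 6 of the 8 libraries. The first responder Egr1 rose from 0.999 and 3.94 to 228 and 289.8 CPM in clone 4 and from 1.45 and 2.01 to 29.8 and 31.4 CPM in clone 8. For Egr1 and both Sprouty genes the 4h libraries of clone 4 lay above those of clone 8 with no overlap. The ETS factors Etv4 and Etv5 had differences of -3.02 and -0.65 (adjusted p = 3.36e-05 and 0.00283), and the AP-1 subunit Junb one of -1.19 (0.012), which was lost without any of 3 libraries. Egr3 had no count at 0h in clone 4 and 18.3 and 19.6 CPM at 4h, at least 72.4-fold higher against a floor of 3 counts over the group, while clone 8 went from 1 to 10 counts, a ratio of 10.1 with a counting interval of 1.43 to 437. Its difference did not pass (0.175).

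The list also held genes with no called difference. Myc, a regulator of growth, rose from 1.6 and 1.97 to 37.6 and 37.8 CPM in clone 4 and from 2.28 and 0.575 to 16.7 and 22.5 CPM in clone 8, a difference of -0.76 (edgeR adjusted p = 0.491). Ier2 changed by 0.41 in clone 4 and 0.44 in clone 8, a difference of 0.03 (0.964). The AP-1 genes Jun and Fosl1 had differences of -1.69 (0.0761) and -2.36 (0.0791), and 57.2% of Fosl1 is shared with a gene on the other strand, whose reads cannot be told from its own here.

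Dusp5, an ERK phosphatase of the nucleus, rose from 2.4 and 2.43 to 33.2 and 26.7 CPM in clone 4 and from 2.70 and 3.45 to 5.73 and 7.04 CPM in clone 8, a difference of -2.60 (SE 0.384; edgeR adjusted p = 2.11e-05). Its promoter is shown because it holds a pair of CArG boxes, the element bound by SRF, a factor that works with the ERK targets of the ETS family. The stretch is chr19:53529033-53529112 on the plus strand of GRCm38.p6 from RefSeq, with the boxes in capitals, the nearer ending 63 bases before the RefSeq start.
Dusp5: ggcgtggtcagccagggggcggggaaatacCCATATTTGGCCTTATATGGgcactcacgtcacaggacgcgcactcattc
A match is a description of letters and not evidence of binding, and 22.1% of Dusp5 is shared with a gene on the other strand.

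Of 19 ligands and receptors that feed this pathway 12 were tested. Of these 5 had a called difference, 2 lower (3.69% of all tested genes) and 3 higher in clone 8 (2.03%). Hbegf, a ligand of the EGF receptor, rose from 5.99 and 5.46 to 32.5 and 33.8 CPM in clone 4 and read 9.65 and 11.6, then 14.6 and 14.7 CPM in clone 8. The clone 8 libraries did not overlap between the times, but its change of 0.47 did not pass (edgeR adjusted p = 0.0666), and the clone difference was -2.06 (SE 0.238; 4.66e-07). Fgf4, the main FGF made by pluripotent cells, fell from 260.1 and 239.9 to 56.1 and 82.0 CPM in clone 4 and from 202 and 193 to 143 and 136 CPM in clone 8, a difference of 1.39 (SE 0.166; 6.81e-07). Fgfr1, its receptor, fell in clone 4 only, from 121 and 132 to 69.2 and 71.1 CPM, and stayed at 109 to 122 CPM in clone 8. Fgfr2 fell from 41.0 and 49.1 to 13.5 and 12.4 CPM in clone 4 and read 13 and 14.9, then 11.2 and 6.89 CPM in clone 8, which had started at the level clone 4 reached. Its difference of 1.22 (0.0011) was lost without clone 8 4h library 1 (0.143). Erbb3, a receptor of neuregulins, rose in both clones and more in clone 4, with a difference of -0.73 (0.00926) that was lost without any of 3 libraries (0.0553 to 0.165).

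Within the RAF cascade 2 of 14 genes had a called difference (5.72% of all tested genes), and with library totals neither did (edgeR adjusted p = 0.267 for Braf and 0.709 for Rps6ka3). Braf, a RAF kinase that activates MEK, rose from 29.6 and 32.6 to 78.7 and 63.5 CPM in clone 4 and stayed at 31.0 to 35.6 CPM in clone 8, a difference of -1.29 (SE 0.18; edgeR adjusted p = 8.93e-06). Rps6ka3, a kinase downstream of ERK, rose in clone 4 only, with a difference of -0.69 (0.029) that was lost without any of 4 libraries. Esr1, the oestrogen receptor gene, read 10.6 and 12.1, then 13.3 and 19.3 CPM in clone 4 and 4.25 and 3.31, then 5.73 and 6.74 CPM in clone 8. Every clone 8 library lay below every clone 4 library, a log2 difference in level of -1.57 (SE 0.232; 1.08e-05) at 0h and -1.35 (SE 0.204; 4.18e-06) at 4h. Whether counts at Esr1 include the construct was not tested.

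Of 18 cytoskeletal target genes of SRF and YAP 11 were tested. Of these 4 had a called difference, all 4 lower in clone 8 (3.69% of all tested genes). In clone 4, 7 of the 11 rose (11.0% of all) and in clone 8 2 did (2.94% of all), with median changes of 0.67 and 0.06. The 4 were Cavin1, described above, Srf, Vcl and Emp1. Srf itself, the serum response factor, rose from 30.4 and 27.3 to 52.9 and 54.1 CPM in clone 4 and stayed at 24.4 to 27.6 CPM in clone 8, a difference of -0.84 (SE 0.17; edgeR adjusted p = 0.00135). Vcl, the focal adhesion protein vinculin, rose from 36.6 and 41.2 to 66.0 and 57.1 CPM in clone 4 and read 45.6 and 43.7, then 51.3 and 44.0 CPM in clone 8. Both genes separated the 4h libraries of the clones. The difference of Vcl, -0.57 (0.0344), was lost without any of 5 libraries, and 25.5% of Vcl is shared with a gene on the other strand. Their promoters are shown because both hold CArG boxes, in capitals, at chr17:46556185-46556274 on the minus strand for Srf and chr14:20929148-20929210 on the plus strand for Vcl (GRCm38.p6, RefSeq), 53 and 218 bases before the start.
Srf: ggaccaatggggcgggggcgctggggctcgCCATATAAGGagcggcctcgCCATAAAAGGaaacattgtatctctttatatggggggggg
Vcl: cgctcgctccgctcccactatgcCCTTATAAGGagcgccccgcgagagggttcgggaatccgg
The 2 boxes of Srf lie 10 bases apart.

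In the list of epithelial to mesenchymal transition 5 of 11 tested genes had a called difference, all 5 lower in clone 8 (3.69% of all tested genes): Twist1 and Snai3, described above, Vim, Itga5 and Plaur. In clone 4, 6 of the 11 rose (11.0% of all) and 1 fell (9.43% of all). In clone 8 2 rose (2.94% of all), and the median changes were 0.74 and 0.30. Vim, the intermediate filament vimentin, rose from 39.4 and 54.7 to 219.9 and 156 CPM in clone 4 and read 38.3 and 42.1, then 54.2 and 53.9 CPM in clone 8, a difference of -1.57 (edgeR adjusted p = 6.81e-07). Itga5, the fibronectin receptor subunit, rose from 39.2 and 30.9 to 59.1 and 56.4 CPM in clone 4 and stayed at 45.3 to 51.1 CPM in clone 8 (difference -0.74, 0.00458). Both 4h libraries of clone 4 lay above those of clone 8 for both genes, and the Itga5 call was lost without either of 2 libraries. Plaur, the urokinase receptor, rose from 0.599 and 1.52 to 69.2 and 45.0 CPM in clone 4 and from 0.208 and 0.862 to 3.32 and 2.14 CPM in clone 8, with a difference of -3.17 (SE 0.945; 0.0403) that was lost without any of 4 libraries (0.0727 to 0.663). Emp1, an epithelial membrane protein from the SRF and YAP list, rose from 1.40 and 1.06 to 9.47 and 5.08 CPM in clone 4 and went from 5.40 and 5.32 to 3.62 and 3.83 CPM in clone 8, a difference of -3.20 (SE 0.449; 1e-05). The promoters of Emp1 and Plaur are shown because each holds an exact AP-1 element, TGACTCA or TGAGTCA on the other strand, in capitals, at chr6:135362756-135362822 and chr7:24462384-24462450, both on the plus strand of GRCm38.p6 (RefSeq), 139 and 63 bases before the start.
Emp1: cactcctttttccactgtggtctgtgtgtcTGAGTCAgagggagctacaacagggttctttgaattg
Plaur: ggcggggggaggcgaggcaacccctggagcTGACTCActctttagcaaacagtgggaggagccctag
Of 12 tested epithelial genes 2 had a called difference, both lower in clone 8 (3.69% of all tested genes). In clone 4, 4 of the 12 rose (11.0% of all) and 2 fell (9.43% of all). In clone 8 1 fell (2.28% of all), and the median changes were -0.21 and -0.29. The summed level of the list went from 374 and 339 to 318 and 295 CPM in clone 4 and from 502 and 485 to 435 and 419.6 CPM in clone 8, lower at 4h in both. Lad1, an anchor of basement membranes, rose from 0.400 and 0.606 to 13.3 and 11.4 CPM in clone 4 and read 0.726 and 1.01, then 1.71 and 1.53 CPM in clone 8 (difference -3.62, adjusted p = 0.000756). Epcam, an epithelial adhesion protein, rose in clone 4 only (difference -1.2, 0.00638), with a call lost without either of 2 libraries.

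Genes best known from neurons and endocrine cells were among those called in clone 4 alone. Of 6 tested genes of neuroendocrine secretory granules, 3 had a called difference, all lower in clone 8 (3.69% of all tested genes): Vgf and Nptx1, described above, and Ptprn, a membrane protein of dense-core granules. The list held 16 genes, and the others had too few counts to be tested. Vgf had 144 and 39 counts in clone 4 at 4h and 4 to 6 in the clone 8 libraries of 0h and 4h. Its high group thus helped it to be tested, and the count of 3 of 6 is a description. Ptprn rose from 2.80 and 3.33 to 52.1 and 31.7 CPM in clone 4 and lay at 1.76 and 1.72, then 2.21 and 1.23 CPM in clone 8, a difference of -3.74 (SE 0.551; edgeR adjusted p = 2.01e-05). The clone 8 libraries of Ptprn overlapped between the times. Arc, a synaptic activity gene, rose from 12.4 and 10.9 to 125 and 126 CPM in clone 4 and from 15.8 and 16.2 to 24.6 and 24.0 CPM in clone 8, a difference of -2.82 (SE 0.215; 8.68e-11). Nptx2, a second pentraxin, rose from 22.0 and 23.3 to 52.7 and 46.7 CPM in clone 4 and went from 28.1 and 29.0 to 24.5 and 23.9 CPM in clone 8 (difference -1.38, 3.99e-06). Arc and Nptx2 were the 2 called of 8 tested genes in the list of 16 CREB-type activity genes, beside 5.72% of all tested genes. Neural progenitor markers summed to 92.2 to 107.3 CPM in clone 4 and 86.2 to 91.1 CPM in clone 8, with Neurog2 and Dcx among those at no count. Of 5 tested 1 had a called difference. That gene, Tubb3, a neuronal tubulin, fell from 58.5 and 70.0 to 31.2 and 32.3 CPM in clone 4 and stayed at 39.2 to 44.3 CPM in clone 8.

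Of 12 naive pluripotency genes tested, 6 had a called difference, all 6 higher in clone 8, where 2.03% of all tested genes were; in clone 4, 8 fell and 2 rose, and in clone 8 1 fell and 2 rose, with median changes of -0.59 and -0.01. Over all tested genes 9.43% fell in clone 4 and 2.28% in clone 8. Klf4, a naive transcription factor, fell from 70.3 and 55.3 to 18.0 and 27.2 CPM in clone 4 and read 110.1 and 104, then 92.5 and 90.2 CPM in clone 8. Nanog, a naive factor with near-identical gene copies that can share its reads, fell from 344 and 345 to 111 and 169 CPM in clone 4 and read 541 and 528, then 404 and 468 CPM in clone 8. For both genes every clone 8 library at 4h lay above every clone 4 library of either time, and clone 8 was higher at 0h too. Tfcp2l1, a factor that sustains self-renewal, fell from 254 and 233 to 112 and 135 CPM in clone 4 and read 399.7 and 386, then 365 and 361 CPM in clone 8 (difference 0.87, edgeR adjusted p = 0.0027). Prdm14, a repressor of FGF signalling and DNA methylation genes, fell from 27.0 and 20.6 to 5.87 and 8.89 CPM in clone 4 and from 31.1 and 36.4 to 21.7 and 19.1 CPM in clone 8 (1.05, 0.00538). Without clone 4 4h library 1 neither was called (0.0686 and 0.308). Esrrb and Dppa3 had differences of 0.62 and 0.74 (0.0301 and 0.042), and the call of each was lost without any of 6 libraries.

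Formative genes split. Of 12 tested, 6 had a called difference, 4 lower (3.69% of all tested genes) and 2 higher in clone 8 (2.03%). Pou3f1 (Oct6), a factor of the formative stage, rose from 2.60 and 2.43 to 17.1 and 11.7 CPM in clone 4 and read 3.63 and 5.03, then 5.43 and 4.29 CPM in clone 8, a difference of -2.35 (edgeR adjusted p = 0.000194). Sox4, a developmental transcription factor of which 54.6% is shared with a gene on the other strand, rose from 2.00 and 0.606 to 16 and 7.87 CPM in clone 4 and stayed at 2.70 to 3.22 CPM in clone 8 (-3.15, 0.000251). The Zic zinc-finger factors went against these. Zic2 rose in clone 8 only, from 22.8 and 23.0 to 31.3 and 33.8 CPM, and read 58.7 and 61.2, then 48.4 and 59.7 CPM in clone 4, where it stayed above clone 8 throughout (0.67, 0.0133, lost without any of 4 libraries). Zic5 fell from 32.0 and 32.3 to 17.2 and 24.6 CPM in clone 4 and went from 9.23 and 10.8 to 13.4 and 15.8 CPM in clone 8, a change of 0.54 that did not pass there (0.0794). Its difference of 1.21 (0.00125) was lost without 1 library (0.0537). Of 8 general pluripotency genes 2 differed, both lower in clone 8 (3.69% of all tested genes). Dppa4 rose from 18.4 and 17.6 to 55.1 and 49.0 CPM in clone 4 and read 21.5 and 23.7, then 27.4 and 32.3 CPM in clone 8 (-1.15, edgeR adjusted p = 8.76e-05). Utf1 rose in both clones, more in clone 4 (-0.70, 0.0135, lost without any of 4 libraries).

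Components of Nodal signalling differed in 5 of 15 genes, 1 lower and 4 higher in clone 8, where 3.69% and 2.03% of all tested genes were. Lefty1, a secreted Nodal inhibitor, fell from 15.6 and 9.55 to 0.933 and 1.27 CPM in clone 4 and from 23.1 and 25.9 to 16 and 10.7 CPM in clone 8, a difference of 2.69 (SE 0.463; edgeR adjusted p = 0.000178). Lefty2 read 13.2 and 9.70, then 1.73 and 8.38 CPM in clone 4 and 73.3 to 90.5 CPM in clone 8, a gap between the clones larger than any change with time. Its difference of 1.34 (0.0321) was lost without any of 4 libraries, and reads of the near-identical Lefty1 and Lefty2 may be split between them. Smad3, which carries the Nodal signal to the nucleus, fell from 28.2 and 27.7 to 8.80 and 12.7 CPM in clone 4 and read 26.1 and 24.1, then 19.9 and 19.6 CPM in clone 8 (1.09, 0.00234, lost without 1 library). Skil, a SMAD repressor and target, rose from 48.5 and 40.5 to 60.8 and 83.3 CPM in clone 4 and went from 58.1 and 56.6 to 43.0 and 44.9 CPM in clone 8 (-1.06, 0.00021). The fifth, Pcsk6, a convertase that activates Nodal, passed in neither clone (0.59, 0.0456) and was lost without any of 7 libraries. DESeq2 did not call Lefty2 (adjusted p = 0.542) or Pcsk6 (0.105).

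The BMP, Wnt and LIF lists had 1 of 10, 1 of 6 and 4 of 10 tested members called, where 5.72% of all tested genes were. Of 12 BMP genes 10 were tested, and only the ligand Bmp4 was called. It rose from 0.799 and 1.06 to 21.3 and 20.3 CPM in clone 4 and from 0.830 and 1.15 to 5.93 and 6.28 CPM in clone 8 (clone difference -1.81, edgeR adjusted p = 0.0428, lost without any of 7 libraries). Of 14 Wnt genes 6 had enough counts to be tested, and Sp5, Nkd1, Lgr5 and Dkk1 were among those that did not. The 1 called was Tcf7, a nuclear effector. It rose from 22.2 and 16.1 to 46.7 and 38.6 CPM in clone 4 and read 26.5 and 27.9, then 20.4 and 25.7 CPM in clone 8 (-1.45, edgeR adjusted p = 2.01e-05). The LIF list of 10 had 4, 2 lower and 2 higher in clone 8. Beside Stat3 and Junb these were the kinase Jak1, which rose from 20.8 and 23.2 to 51.1 and 41.7 CPM in clone 4 and stayed at 31.6 to 35.7 CPM in clone 8 (-0.99, 0.00024), and the receptor Il6st, which fell in clone 4 only (0.52, 0.0488) with a call lost without any 1 of the 8 libraries. Jak1 and Stat3, kinase and substrate of the same pathway, thus passed in different clones. Of the 10 LIF genes 3 rose and 2 fell in clone 4 (11.0% and 9.43% of all tested genes). In clone 8, 5 rose and 0 fell (2.94% and 2.28% of all). The median changes were 0.10 in clone 4 and 0.47 in clone 8, the larger one in clone 8.

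Of 9 DNA methylation genes 3 differed, beside 5.72% of all tested genes: Dnmt3a, described above, its partner Dnmt3l, which rose in both clones and more in clone 4 (-0.70, edgeR adjusted p = 0.0423), and the oxidase Tet3, which rose in clone 4 only (-1.08, 0.00838), the latter calls lost without any of 6 and 4 libraries. Of 10 genes of the repressor PRC2, 2 differed, beside 5.72% of all tested genes. Jarid2 rose more in clone 4 (-0.48, edgeR adjusted p = 0.0306) and Aebp2 had a difference of 0.58 (0.0282). Both calls were lost without most libraries, 8 and 6 of the 8. Among 11 tested imprinted genes 4 differed, all lower in clone 8 (3.69% of all tested genes). Phlda2, a growth restrainer of the placenta, rose from 2.00 and 2.73 to 19.2 and 14.7 CPM in clone 4 and stayed at 1.58 to 1.91 CPM in clone 8 (-2.74, 0.000133). Meg3, a long noncoding RNA, rose from 31.0 and 42.9 to 106 and 67.6 CPM in clone 4 and read 19.4 to 23.0 CPM in clone 8 (-1.14, 0.00177), with 1 library needed for its call (0.0901 without it). Mest and Plagl1 completed the 4, with calls lost without any of 3 and 6 libraries.

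Growth and metabolism lists had 0 or 1 called difference each, beside 5.72% of all tested genes. Lists this short cannot be told apart from that share. No gene of 16 in the ATF4 stress list, 15 in the sterol list or 14 in the ribosome biogenesis list passed edgeR's test, 1, 1 and 0 of them had an unadjusted p under 0.05, and DESeq2 called 0 in each. Of 12 genes of the G1 phase the 1 called was Cdkn1b (p27), an inhibitor of cyclin-dependent kinases, which fell from 34.6 and 30.8 to 11.5 and 11.2 CPM in clone 4 and from 57.8 and 55.3 to 42.7 and 41.0 CPM in clone 8 (difference 1.08, edgeR adjusted p = 9.36e-05). Of 16 glycolysis genes the 1 called was Pfkp, a phosphofructokinase, which rose from 180.0 and 133 to 252 and 236 CPM in clone 4 and read 181 and 189, then 169 and 148 CPM in clone 8 (-0.87, 0.000583). Its promoter is shown because it holds the EGR element GCGTGGGCG, in capitals, 15 bases before the start, at chr13:6648772-6648824 on the minus strand of GRCm38.p6 (RefSeq).
Pfkp: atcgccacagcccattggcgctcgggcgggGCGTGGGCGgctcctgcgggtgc

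**Figure D4:**
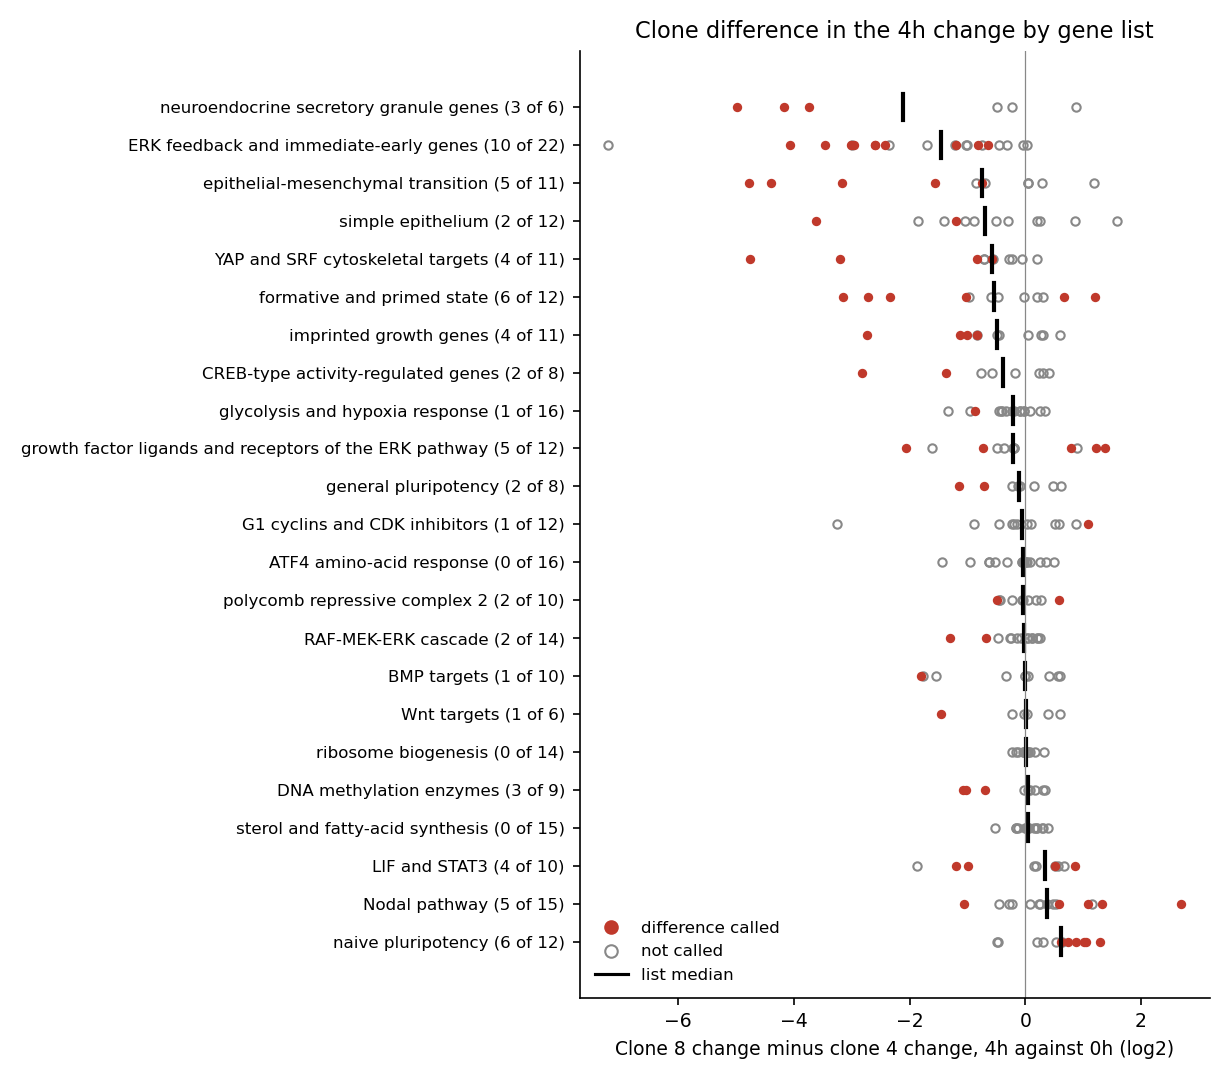
Clone difference of the 4h change (log2, clone 8 minus clone 4) for each tested gene of the gene lists, 1 row per list, with called genes filled, others open and a black bar at the list median. The ERK feedback and immediate-early genes spread to the left of 0, the naive pluripotency genes lie mostly to its right, and ATF4, sterol and ribosome biogenesis genes sit near 0 with no called gene. Over all tested genes 5.72% were called.

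Among tested markers of other cell types 1 of 8 for primitive endoderm, 1 of 7 for trophoblast, 1 of 5 for neural progenitors, 0 of 3 for mesendoderm and 0 of 9 for the two-cell stage had a called difference, beside 5.72% of all tested genes. Primitive endoderm markers summed to 269.3 and 257.2 CPM at 0h and 378.7 and 334.5 CPM at 4h in clone 4, and to 405.0 and 395.5, then 386.7 and 382.4 CPM in clone 8, so that clone 8 began higher. Of 8 tested 1 differed: Lamb1, a laminin chain, which rose from 22.0 and 20.9 to 84.5 and 72.6 CPM in clone 4 and read 69.2 and 59.9, then 59.9 and 55.3 CPM in clone 8 (difference -2.05, SE 0.163; edgeR adjusted p = 1.79e-10). The defining factors Gata6, Sox17, Sox7 and Foxa2 had too few counts to be tested. Trophoblast markers summed to 60.9 to 79.7 CPM in clone 4 and 44.3 to 62.2 CPM in clone 8, with 1 of 7 called, the transcription factor Gata3 (-1.28, 0.0469), lost without any of 6 libraries. Mesendoderm markers summed to 6.4 to 18.3 CPM, and none of 3 passed edgeR's test (1 at an unadjusted p under 0.05, 0 by DESeq2). Two-cell markers summed to 4.4 to 6.4 CPM in clone 4 and 12.6 to 24.8 CPM in clone 8, and none of 9 passed (0 unadjusted, 0 by DESeq2). The part of these marker levels in the clone difference was not tested.

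Promoter motifs were counted in the 250 bases before to 50 bases after the RefSeq start, which the sequence table held for 270 of the 369 genes that rose in clone 4 only and for 9494 tested genes. The AP-1 element TGACTCA, either strand, was in 6.30% of the former (17 genes) and 3.19% of the latter, and in 5.17% of all 27025 promoters of the table. The EGR element GCGTGGGCG was in 4.07% (11 genes), 1.27% and 0.625%, and the CArG box in 2.22% (6 genes), 1.22% and 1.57%. The ETS element CCGGAAGT went the other way against tested genes, with 4.07% beside 8.73%, but not against all promoters (4.0%). NF-Y, CCAAT, was lower than in both, with 31.9%, 39.6% and 37.9%. The CRE, TGACGTCA, was in 2.59%, below the 3.37% of tested genes and above the 1.88% of all promoters. In the 156 promoters of genes that fell in clone 4 only the AP-1, EGR and CArG shares were 3.21%, 1.92% and 0.641%. In the 49 promoters of genes that rose in both clones the same shares were 6.12% (3 genes), 2.04% (1 gene) and 2.04% (1 gene). There ETS, NF-Y and CRE stood at 2.04%, 28.6% and 4.08%. The AP-1 and CArG shares of rises in clone 4 only were thus near those of rises in both. These shares are descriptions with no test, and only exact letters were counted.

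The clones were already apart in level before induction for part of the genes. The level at 0h differed for 1489 genes (11.7% of those tested) and at 4h for 3086 (24.2%). Among the 369 genes that rose in clone 4 only, 98 differed in level at 0h and 315 at 4h, and the median gap, clone 8 minus clone 4 in log2, went from 0.25 to -1.15. Among the 204 that fell in clone 4 only, 61 differed at 0h and 173 at 4h, with median gaps of 0.01 and 0.89. At 2h the median gaps were -0.20 and 0.17, and at rev -0.12 and 0.14. Among the 4 times the median gap of both classes was widest at 4h, but the 4h libraries chose these genes, so that value is no independent measure.

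**Figure D5:**
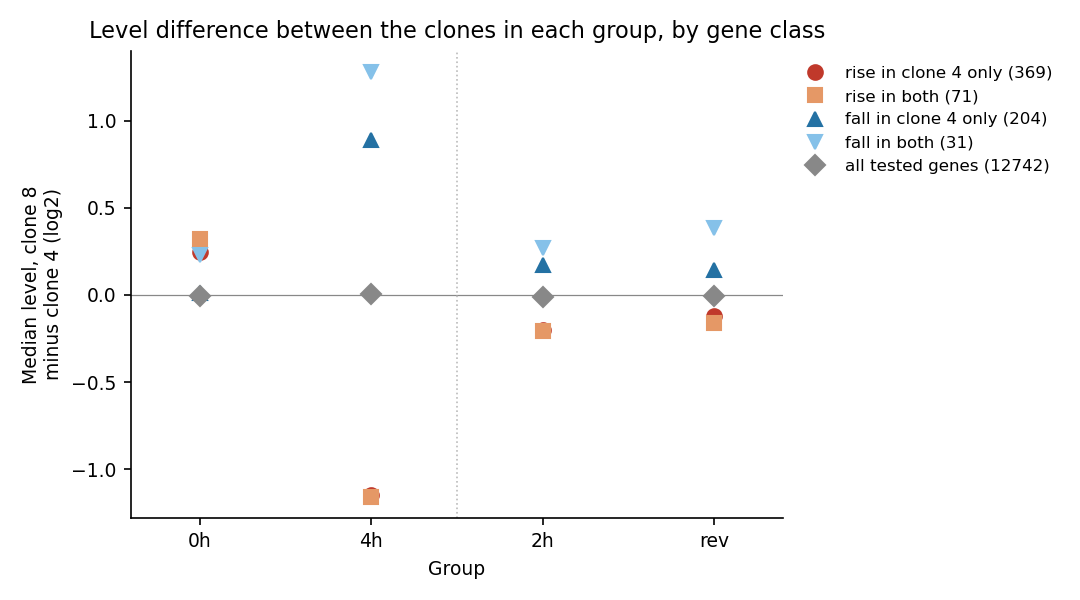
Median gap in level between the clones (log2, clone 8 minus clone 4) at 0h, 4h, 2h and rev for 4 classes of genes with a called difference and for all tested genes. The classes reach -1.16 to 1.28 at 4h, which chose them, and lie between -0.21 and 0.39 at 2h and rev, while all genes stay at -0.01 to 0.01.

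A separate measure came from the 8 libraries at 2h and rev, as the level at 2h, with the kinase on, minus that at rev, with MEK blocked, in clone 8 minus the same in clone 4. In these the clone difference passed for 44 genes (0.345%), a count that was 17 without clone 4 rev library 2, 20 without clone 8 rev library 1, 27 without clone 8 2h library 2, 78 without clone 8 rev library 2 and 4600 with scaling by library totals. Of the 44, 34 were lower in clone 8 (0.267%) and 10 higher (0.0785%). Of them 10 were among the 729 (22.7% of the 44, 1.37% of the 729), and all 10 had the same sign in both contrasts. Arc read 109.1 and 144.7 CPM at 2h and 22.4 and 22.3 CPM at rev in clone 4 and stood at 33.4 and 31.2, then 15.1 and 20.3 CPM in clone 8. The 2h libraries of clone 4 lay far above those of clone 8 and the rev libraries of both clones lay close together, a clone difference of -1.70 (edgeR adjusted p = 2.63e-06). The 7 others with a negative sign were Junb (-1.46, 0.00193), the EGR cofactor Nab2 (-1.14, 0.00271), the zinc-finger factor Klf10 (-1.07, 0.000102), Csrnp1 (-1.06, 0.0182), the cyclin Ccnl1 (-0.90, 0.0067), Maco1 (-0.76, 0.0405) and Midn (-0.73, 0.0113). Prdm14 (1.22, 0.00271) and Npr3, a natriuretic peptide receptor (1.51, 0.0405), were positive.

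For the 10 named genes that rose in clone 4 only, Pla2g7 to Vgll3, the clone difference between 2h and rev ran from -0.69 to 1.69 (edgeR adjusted p from 0.329 to 0.991). Egr1 differed between 2h and rev by 6.48 in clone 4 and by 5.86 in the other clone (-0.62, edgeR adjusted p = 0.671), Spry4 by 6.14 and 5.99 (0.949), and Dusp6 by 4.76 and 4.09 (0.717). Of the 369 genes that rose in clone 4 only, 202 (54.7%) had the same sign of the clone difference between 2h and rev as between 4h and 0h, as did 405 of the 729 (55.6%), against 49.5% of all tested genes. Myc was called in this contrast and not at 4h, with a clone difference of 2.89 (0.000102). The 2 contrasts differ in time as well as in treatment.

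The 729 genes included some on each autosome and on the X chromosome, and the shares were not compared by a test. The share called ran from 3.72% on chromosome 13 (19 of 511 genes) to 7.72% on chromosome 8 (56 of 725), around the 5.72% of all tested genes. Of the 369 rises and 204 falls of clone 4 only, 97.3% and 98% were protein-coding, against 91.6% of tested genes, and their median levels at 0h were 9.64 and 30.1 CPM against 10.9 CPM.

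Scaling by library totals ended the call of the clone difference for 49 of the 94 genes followed through the alternatives (edgeR adjusted p from 0.0559 to 0.846). Of the ERK list these were Junb, Spry2 and Etv5. Of the genes named by size they were Notch4, Stat3, Nefh and Slc19a2, all 4 clone 8 falls and Tro. The pluripotency and formative genes among them were Esrrb, Tfcp2l1, Prdm14, Dppa3, Utf1, Dppa4, Dnmt3a, Zic2 and Sox3, while Nanog, Klf4, Pou3f1 and Sox4 passed. In the signalling lists the calls of Fgfr1, Erbb3, Braf, Rps6ka3, Smad3, Skil, Pcsk6, Bmp4, Tcf7, Il6st and Jak1 ended. Of the cytoskeletal, epithelial and mesenchymal genes Vcl, Srf, Epcam, Vim, Plaur and Itga5 did not pass. The others were Nptx2, Pfkp, Jarid2, Aebp2, Dnmt3l, Tet3, Meg3, Mest, Plagl1, Gata3 and Tubb3.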

How the data were processed

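RNA of 16 libraries was measured by sequencing of total RNA depleted of ribosomal RNA, per the labels' protocols. The authors deposited whole-number counts per Ensembl gene ID, not normalized. The submitters' processing notes name bcl2fastq 2.19.1, STAR 2.5.3a and the build mm10, and the counting program, strand setting and annotation are not given in the sources used here. Of 52636 IDs, 52489 matched GENCODE M21 (GRCm38). Groups came from the sample titles. Here edgeR 4.0.16 (quasi-likelihood test, R 4.3.3) was fitted to all 16 libraries with 1 mean per clone and time, TMM scaling and filterByExpr (minimum count 10, minimum total 15), with Benjamini-Hochberg adjustment over 12742 genes and a threshold of 0.05. All libraries differed from their replicate by more than counting noise (chi-square per degree of freedom at least 4.36) and were kept. Counting intervals are exact at 95% and cover counting error only. On simulated counts for the clone difference over 12371 genes, 85 of 100 genes changed by 1 log2 unit and 100 of 100 changed by 2 were recovered, with 8 false calls among 193. The changed genes were drawn only from those with a mean of at least 10 CPM, so recovery at lower levels was not tested. Alternatives were another scaling, another filter, DESeq2 1.42.0, a stricter threshold, a minimum size, a replicate block and leaving out each library. Genes were named by size of a called clone difference with the 4 differences of a 4h and a 0h library in clone 8 all on one side of the 4 in clone 4, and a mean count of at least 50 in the highest group: up to 10 rises and 5 falls of clone 4 only, 5 and 5 of clone 8 only, 3 opposite and 3 the same way, plus called members of gene lists. Genes named from the contrast of 2h and rev, and Myc, Ier2, Egr3 and other uncalled members, were chosen after their values were seen. The compared genes and lists were chosen with earlier results of these data known. Some items are not reported here.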

Additional observations from a re-analysis of the deposited data

Results flagged for a closer look

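For each of the 30 genes below the test of the clone difference itself, the interaction of clone with time in edgeR, passed in the main fit. Among all genes that passed, these were picked by size within their class, with the separation of libraries and the count minimum given above. Not every call held under the alternatives. Those of Efr3b, Fam107b and Cavin1 did, while every gene of clone 8 only, Tiam1 most often, lost its call under some of them. Among rises in clone 4 only the clone differences (clone 8 minus clone 4, log2) were -7.28 for Pla2g7, -5.36 for Efr3b, -4.98 for Vgf, -4.40 for Twist1, -4.32 for Hivep2, -4.31 for Sema6a, -4.29 for Slc46a3, -4.27 for Col7a1, -4.18 for Nptx1 and -4.12 for Vgll3. Falls in clone 4 only gave 2.13 for Slco4a1, 2.11 for Prmt8, 1.96 for Rasgef1a, 1.80 for AI464131 and 1.76 for Rab11fip5. Rises in clone 8 only gave 1.67 for Fam174b, 1.03 for Notch4, 0.85 for Stat3, 0.76 for Nefh and 0.68 for Slc19a2, and its falls -1.52 for Tmem229b, -1.22 for Plin2, -0.89 for Tnks1bp1 and -0.63 for Tiam1. Opposite changes gave -2.80 for Fmnl1, -2.72 for Fam107b and -1.19 for Tro, and rises in both clones -4.78 for Snai3, -4.76 for Cavin1 and -4.47 for Nrp2.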

How the results depend on the processing

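The 729 called differences became 153 with library totals, 443 with DESeq2, 391 at an adjusted p under 0.01 and 433 at an absolute log2 of at least 1, and ran from 281 to 788 with 1 library left out. The 2607 clone 4 changes became 1249, 1661 at 0.01 and 1019 by size, with 1301 to 2289 when 1 library was left out. The 664 clone 8 changes became 85, 332 with DESeq2, 270 and 160, with 149 to 294. The 44 differences between 2h and rev became 4600, 29 with DESeq2, 87 with no filter and 22 at 0.01, with 17 to 78. The 588 genes of 1 clone became 134, 365, 328 and 347, with 215 to 642. Under library totals the median change of all genes was -0.22 in clone 4 and 0.12 in clone 8, against -0.02 and -0.00, and the share called higher went from 53.9% to 39.1% in clone 4, from 56.3% to 90.6% in clone 8 and from 22.7% to 99.7% between 2h and rev; DESeq2 gave 71.7% in clone 8. The cause was not tested.

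Of 1685 values of 94 genes under all alternatives, 1379 kept the call of their clone difference, 306 lost it and 0 changed sign; library totals accounted for 49 of the losses. DESeq2 did not call 17 of them: Fam174b, Notch4, Nefh, Slc19a2, Tmem229b, Tiam1, Spry2, Rps6ka3, Dppa3, Lefty2, Pcsk6, Bmp4, Il6st, Vcl, Dnmt3l, Plagl1 and Gata3 (adjusted p from 0.0507 for Notch4 to 0.542 for Lefty2).

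The replicate numbers did not pair the libraries (correlations of deviations -0.0952 to 0.0808 in clone 4 and -0.133 to 0.119 in clone 8). With the replicate number as a block, 635 differences, 2529 clone 4 changes, 610 clone 8 changes, 39 differences between 2h and rev and 518 genes of 1 clone were called, and among the genes followed the block ended the calls of Dppa3 (adjusted p = 0.0637), Bmp4 (0.0582), Il6st (0.0653) and Plagl1 (0.0692). Depth limits genes under about 3 counts per library.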
